A study of Mus musculus with 22 samples.

Results

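The brush border hydrolases and peptidases described here were 8 genes, Mgam, Sis, Anpep, Dpp4, Enpep, Ace, Mep1a and Mep1b, out of 46078 genes counted in the distal colon of 22 mice. They were taken by gene symbol from the count table and were chosen by the higher CPM of Mgam in Winnie than in C57BL/6 colons (CPM being the counts of a gene scaled to a common library total), so that Winnie against C57BL/6 is given below as a description with no test for any of the 8 genes, and Mgam is tested in no comparison of the groups. Whole distal colon was sequenced from 8 C57BL/6 mice of 14 weeks (4 males and 4 females), 7 Winnie mice of 14 weeks (3 males and 4 females) and 7 Winnie-Prolapse mice of 18 weeks (4 males and 3 females). All Winnie libraries in the labels were used, although the text of the study counts fewer Winnie colons, and the reason is not given in the sources used here. Winnie mice carry a missense mutation in Muc2, the gene of the secreted mucin of goblet cells, in every cell of the body, and develop a spontaneous chronic colitis. Winnie-Prolapse mice are Winnie mice with a prolapse, so the prolapse and the age of 18 weeks cannot be told apart in any comparison with that group.

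The brush border is the layer of microvilli on the luminal face of absorptive epithelial cells, and it carries enzymes that finish digestion at the cell surface. Disaccharidases such as maltase-glucoamylase and sucrase-isomaltase split starch fragments and sugars, aminopeptidases and dipeptidyl peptidases trim peptides from their ends, and the meprins are metalloproteases that cut within proteins, including mucins and the extracellular domains of other proteins. These enzymes are best known from the small intestine. In the colon the meprins are made by mature colonocytes, while several of the peptidases are also made by other cells: dipeptidyl peptidase 4 by T cells, aminopeptidase N by myeloid cells, aminopeptidase A by pericytes and angiotensin-converting enzyme by endothelium.

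The DNA just before the start of Mgam, Sis and Mep1a is shown because these genes stood at the extremes of the levels below: Sis and Mgam code for enzymes of the same family yet were nearly silent and abundant, and Mep1a had the largest difference between groups. The sequences are from RefSeq on GRCm38.p6, read 5′ to 3′ on the strand of the gene and ending just before its annotated start, with matches to any of 3 motifs in capitals. The motifs, searched on both strands, were TTTATNG, a site of the CDX factors, AGATAA, a site of the GATA factors, and the TATA box TATAAA, with overlaps allowed.
Mgam, chr6:40628581-40628830, plus strand: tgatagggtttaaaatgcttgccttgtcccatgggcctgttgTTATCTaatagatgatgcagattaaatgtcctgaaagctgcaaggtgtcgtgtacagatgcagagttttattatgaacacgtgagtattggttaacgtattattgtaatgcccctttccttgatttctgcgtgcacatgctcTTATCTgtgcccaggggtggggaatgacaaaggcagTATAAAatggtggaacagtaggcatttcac
Sis, chr3:72967864-72968113, minus strand: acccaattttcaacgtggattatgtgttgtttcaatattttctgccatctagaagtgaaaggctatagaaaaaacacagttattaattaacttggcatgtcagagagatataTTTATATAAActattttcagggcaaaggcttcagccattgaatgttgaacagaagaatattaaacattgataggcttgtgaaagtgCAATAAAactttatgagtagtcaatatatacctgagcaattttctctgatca
Mep1a, chr17:43502813-43503023, minus strand: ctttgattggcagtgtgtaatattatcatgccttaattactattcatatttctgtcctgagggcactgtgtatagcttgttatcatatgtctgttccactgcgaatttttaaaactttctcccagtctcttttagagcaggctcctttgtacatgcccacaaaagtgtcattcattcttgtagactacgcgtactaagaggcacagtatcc
The Sis stretch held 1 CDX match and 2 overlapping TATA matches. The Mgam stretch held 2 GATA matches and 1 TATA match that lay 25 to 30 bases before the start. Of 32851 promoter windows of 250 bases, 9.81% held at least 1 CDX match, 9.99% at least 1 GATA match and 12.4% at least 1 TATA match. The share of windows with 2 matches was not counted. The Mep1a stretch is shorter, at 211 bases, because the RefSeq window runs into the annotated gene; neither it nor the whole window of 250 bases held any of these letters. Of the 8 genes, 7 had an entry in the RefSeq table. A match describes the letters only.

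A pair of libraries stood apart from the rest and touch several results. The library of C57BL/6 replicate 7, a female, had 16.4 CPM of Hoxb13 against 177 to 612 in the other 21 libraries, 0.217 CPM of Hoxd13 against 111 to 288 and no count of Hoxd12, although these genes mark the most distal colon. The same library held 845 CPM of Fabp2, an enterocyte fatty acid binding protein, against 3.07 to 53.9 elsewhere, but the small intestine genes did not move together, with 2 of the 10 on that list highest and 2 lowest of the 22 libraries there (Fabp6 at 1.09 CPM against 3.77 to 30.3 and Mttp at 1.52 CPM against 2.19 to 7.97). It also held 105 CPM of Isx against 0 to 11.8 and 315 CPM of Cdx2 against 2.31 to 108. It was the highest of the 22 libraries for 6 of 6 smooth muscle markers (Myh11 at 3154 CPM against at most 2098 elsewhere) and for 4 of 6 pericyte markers (Rgs5 at 983 CPM against 43.9 to 159), while the pericyte markers Pdgfrb, at 14.2 CPM, and Notch3, at 2.75 CPM, were within the range of the others. Its labelled site of distal colon therefore went against these position genes. The library of Winnie-Prolapse replicate 6, a female, had 18.0% of its counts on milk protein genes, which took no more than 0.00542% of any other library. Results that either of them changes are given with and without it. Total counts ran from 24817527 to 36344372 per library.

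**Figure D1:**
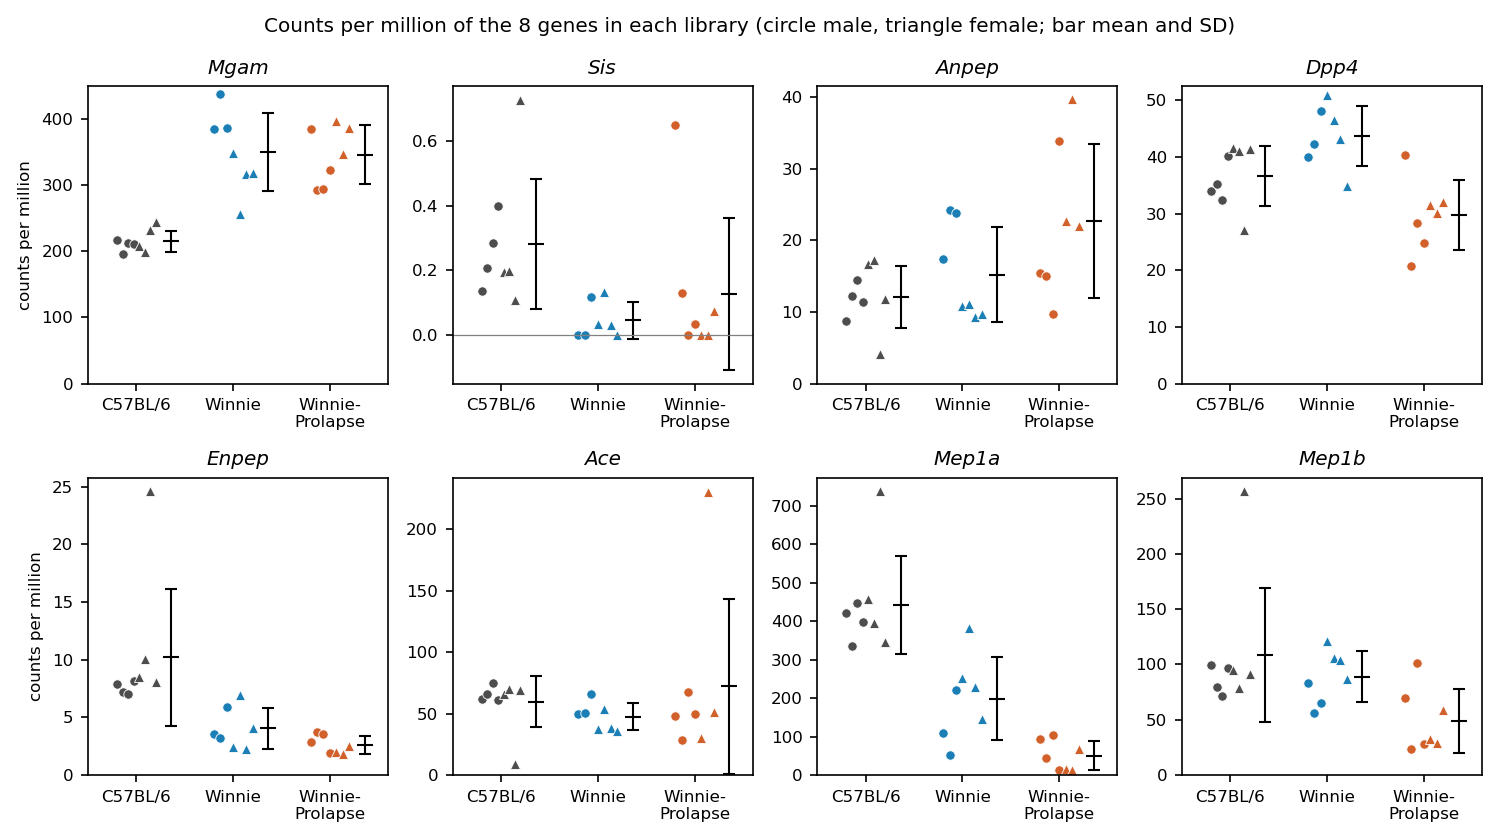
Levels in CPM of the 8 genes (vertical axes, each panel with its own linear scale) in each library of C57BL/6, Winnie and Winnie-Prolapse, with circles for males and triangles for females; the bar beside each group is the mean and SD, and for Sis the lower bar runs below 0. Every Winnie and Winnie-Prolapse library lay above every C57BL/6 library for Mgam, and below every C57BL/6 library for Enpep.

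The glucosidases come first. Mgam codes for maltase-glucoamylase, which releases glucose from the ends of starch chains, and lies at chr6:40628831-40769123 on the plus strand of GRCm38. Its level in the 8 C57BL/6 libraries ran from 197 to 244 CPM with a median of 212. In Winnie the 7 libraries held 385, 438, 387, 349, 257, 318 and 319 CPM. In Winnie-Prolapse they held 385, 292, 295, 323, 397, 347 and 388 CPM. The means were 215 ± 16.1 CPM in C57BL/6 (SD, n = 8), 350 ± 59.1 in Winnie (SD, n = 7) and 347 ± 44.4 in Winnie-Prolapse (SD, n = 7). All 7 Winnie and all 7 Winnie-Prolapse libraries stood above the highest C57BL/6 library, and the Winnie and Winnie-Prolapse ranges overlapped. The log2 fold change fitted with edgeR was 0.78 with an SE of 0.10 for Winnie against C57BL/6 and likewise 0.78 with an SE of 0.10 for Winnie-Prolapse against C57BL/6. These comparisons share the C57BL/6 libraries. Between Winnie-Prolapse and Winnie the log2 fold change was 0.00 with an SE of 0.13. Of all genes tested, 0.463% had every Winnie library above every C57BL/6 library and 6.5% had every Winnie-Prolapse library above them. Within Winnie, the 3 males held 385 to 438 CPM and the 4 females 257 to 349 CPM, without overlap. In Winnie-Prolapse the 4 males held 292 to 385 CPM and the 3 females 347 to 397 CPM.

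Mgam2-ps, the neighbouring gene at chr6:40778711-40855600 on the same strand, is annotated as an unprocessed pseudogene, a duplicated copy of Mgam without an enzyme product. How reads that fit both were assigned is not stated in the sources used here, so the split of counts between them is uncertain. For that reason its changes are given with no p, like those of Mgam. The counts of family relatives below include it, and its place in them is not read as a test. Its fitted log2 change was 0.65 ± 0.15 (SE) in Winnie against C57BL/6 and 0.67 ± 0.19 (SE) in Winnie-Prolapse against C57BL/6. Its level was 0.486 ± 0.0780 of that of Mgam in C57BL/6 (SD, n = 8), 0.448 ± 0.0842 in Winnie (SD, n = 7) and 0.446 ± 0.0887 in Winnie-Prolapse (SD, n = 7), so the ratio between the copies differed by less than its spread.

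Sis codes for sucrase-isomaltase, which splits sucrose and the branch points of starch, and lies at chr3:72888557-72967863 on the minus strand. It was close to the limit of detection in every library, where 3 counts amount to 0.0825 to 0.121 CPM. The 8 C57BL/6 libraries held 3 to 22 counts, a median of 0.201 CPM. In Winnie the counts were 0, 0, 3, 1, 4, 1 and 0. In Winnie-Prolapse they were 22, 4, 0, 1, 0, 0 and 2. Most Winnie and Winnie-Prolapse libraries were therefore at or under the floor of 3 counts, while every C57BL/6 library reached it. Sis did not pass the filter on low counts in any comparison of the groups, so the main test was not run on it, and no fold change is given with so many libraries under the floor. In fits that keep it, the adjusted p in Winnie-Prolapse against C57BL/6 was 0.335 with edgeR and no filter and 0.308 with DESeq2, and in Winnie-Prolapse against Winnie it was 0.41 and 0.488.

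Mep1a and Mep1b code for the alpha and beta subunits of meprin, the metalloprotease of the colonocyte surface. The beta subunit is anchored in the membrane, and the alpha subunit is held there by pairing with it or is secreted. Mep1a (chr17:43474324-43502812, minus strand) held 336 to 457 CPM in 7 of the C57BL/6 libraries and 738 CPM in C57BL/6 replicate 7. The Winnie libraries held 108, 51.5, 222, 253, 383, 228 and 146 CPM. The Winnie-Prolapse libraries held 94.0, 45.2, 104, 13.0, 16.1, 13.9 and 68.9 CPM. Every Winnie-Prolapse library was below every C57BL/6 library, as were 6 of the 7 Winnie libraries. Mep1a fell in Winnie-Prolapse against C57BL/6 with a fitted log2 change of -3.02 ± 0.47 (SE; adjusted p = 9.52e-05), a level 0.123 times that of C57BL/6 in the fit. Without the 2 libraries that stood apart the log2 fold change was -2.70 ± 0.46 (SE; adjusted p = 0.000272). It fell also in Winnie-Prolapse against Winnie, with a fitted log2 change of -1.95 ± 0.55 (SE; adjusted p = 0.0426). That call was lost in 11 of 21 alternatives, among them sex as a covariate (adjusted p = 0.0827) and the fits without any one of Winnie replicates 3, 4, 5, 6 and 7 or Winnie-Prolapse replicates 2, 4, 5, 6 and 7, with adjusted p from 0.00318 to 0.0916 over all 21. As a description, the log2 fold change of Winnie against C57BL/6 was -1.07 ± 0.32 (SE).

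Mep1b lies at chr18:21061923-21100199 on the plus strand. It held 71.3 to 99.8 CPM in 7 of the C57BL/6 libraries and 257 CPM in C57BL/6 replicate 7. The Winnie libraries held 56.5 to 121 CPM with a median of 86.5. The Winnie-Prolapse libraries held 69.5, 23.8, 101, 27.7, 32.4, 29.1 and 58.4 CPM. Of the 7 Winnie-Prolapse libraries, 6 were below every C57BL/6 library and 1, replicate 3, was within their range. Mep1b fell in Winnie-Prolapse against C57BL/6 with a fitted log2 change of -1.04 ± 0.37 (SE; adjusted p = 0.0271), but not past the study's threshold of an adjusted p under 0.001. Without C57BL/6 replicate 7 the log2 fold change was -0.71 ± 0.31 (SE; adjusted p = 0.0655), and without both libraries that stood apart it was -0.62 ± 0.33 (SE; adjusted p = 0.123). The call was likewise lost without any one of Winnie-Prolapse replicates 2, 4, 5 and 6, where the adjusted p ran from 0.0544 to 0.0613, and the adjusted p ran from 0.00386 to 0.123 over all 23 alternatives. Against Winnie, the log2 fold change in Winnie-Prolapse was -0.84 ± 0.34 (SE; adjusted p = 0.127). For Winnie against C57BL/6 it was -0.19 ± 0.26 (SE), and 0.12 ± 0.16 (SE) without C57BL/6 replicate 7.

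The balance of the meprin subunits also moved within libraries. Per kilobase of exon, the level of Mep1a was 2.18 to 4.76 times that of Mep1b in the C57BL/6 libraries, 0.694 to 2.74 times in Winnie and 0.357 to 1.44 times in Winnie-Prolapse. Mep1a was the higher of the pair in 8 of 8 C57BL/6, 5 of 7 Winnie and 2 of 7 Winnie-Prolapse libraries. This ratio was formed after the values had been seen and was not tested.

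Genes of mature colonocytes, the cells that make the meprins, were also measured. Of 8 markers (Car1, Car4, Slc26a3, Slc26a2, Aqp8, Guca2a, Ceacam20 and Krt20), 6 fell and 1 rose in Winnie-Prolapse against C57BL/6 at an adjusted p under 0.05 and 1.5-fold, with a median log2 fold change of -2.30 against -0.01 over all genes tested, of which 16.7% rose and 17.7% fell by the same rule. Their summed level ran from 7997 to 12568 CPM in C57BL/6, from 3301 to 12252 CPM in Winnie and from 1584 to 7201 CPM in Winnie-Prolapse, and none was under 1 CPM throughout a group. The summed level of 8 general epithelial markers (Epcam, Cdh1, Krt8, Krt18, Krt19, Krt20, Cldn7 and Vil1) ran from 9569 to 13002, from 10283 to 15317 and from 8569 to 15508 CPM, in the same order of groups. Krt20 is also among the colonocyte markers above and Vil1 among the structural genes below, so these lists are not separate. Relative to the epithelial sum, the mean of Mep1a in Winnie-Prolapse was 0.0962 times that in C57BL/6, the mean of Mep1b 0.393 times and the mean of Mgam 1.46 times. Without the 2 libraries that stood apart these were 0.112, 0.469 and 1.35 times. The mean of Mgam in Winnie on that scale was 1.33 times that in C57BL/6, and 5 of its 7 libraries exceeded the whole C57BL/6 range. Without C57BL/6 replicate 7 that mean was 1.31 times, again with 5 of 7 libraries above. The part of the colonocyte genes in these results was not tested, and in whole tissue fewer cells of a type and less RNA per cell cannot be told apart.

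**Figure D2:**
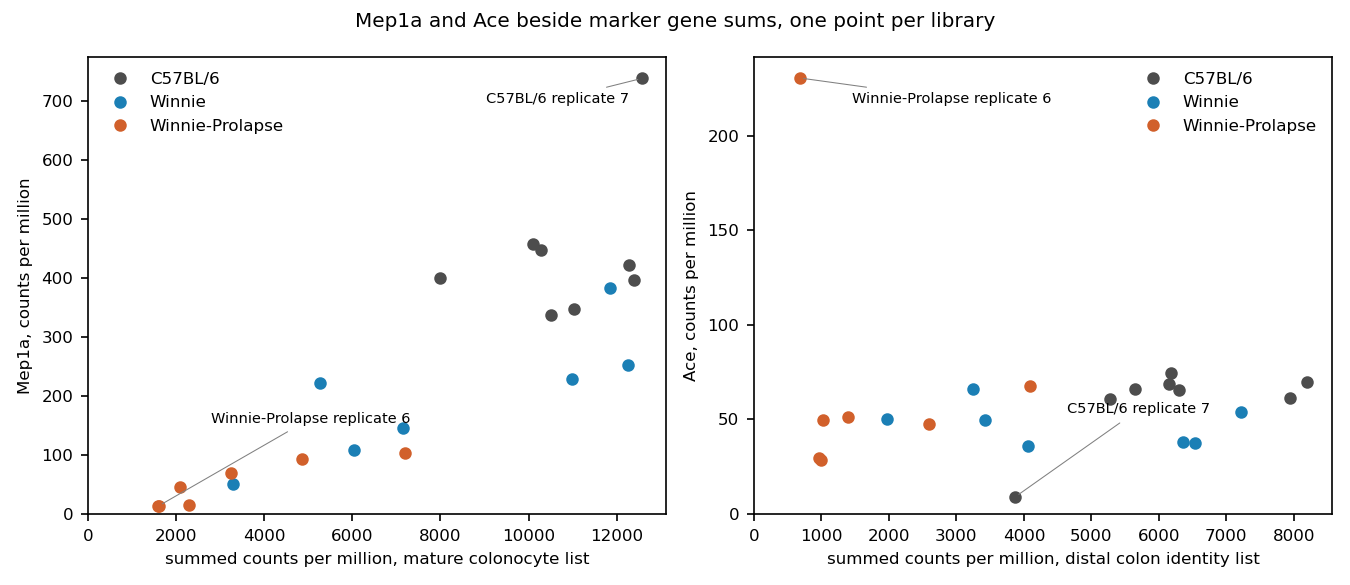
Left, Mep1a (CPM) against the summed CPM of 8 mature colonocyte genes; right, Ace (CPM) against the summed CPM of 8 genes of distal colon identity, 3 of which are also colonocyte genes and make up 24.6% to 90.7% of the sum; each point is 1 library, coloured by group, on linear axes. The Winnie-Prolapse libraries lie at 7201 CPM or less of colonocyte genes with at most 104 CPM of Mep1a, and C57BL/6 replicate 7 and Winnie-Prolapse replicate 6 are set off from their groups for Ace.

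The exopeptidases form the last group. Enpep codes for aminopeptidase A, which removes acidic residues from peptides and turns angiotensin II into angiotensin III, and lies at chr3:129269175-129332720 on the minus strand. It held 7.05 to 10.1 CPM in 7 of the C57BL/6 libraries and 24.7 CPM in C57BL/6 replicate 7. The Winnie libraries held 3.55, 3.20, 5.94, 2.40, 6.92, 2.24 and 4.12 CPM. The Winnie-Prolapse libraries held 2.90, 3.72, 3.57, 1.95, 1.96, 1.85 and 2.502 CPM. Neither group overlapped C57BL/6, and they overlapped each other. Enpep fell in Winnie-Prolapse against C57BL/6 with a fitted log2 change of -1.88 ± 0.30 (SE; adjusted p = 0.0001004), and of -1.48 ± 0.19 (SE; adjusted p = 3.0e-05) without the 2 libraries that stood apart. Between Winnie-Prolapse and Winnie the log2 fold change was -0.59 ± 0.26 (SE; adjusted p = 0.148). For Winnie against C57BL/6 it was -1.27 ± 0.30 (SE), or -0.94 ± 0.21 (SE) without C57BL/6 replicate 7. Over all genes tested, 1.17% had every Winnie library below every C57BL/6 library and 9.45% had every Winnie-Prolapse library below them. Of 6 pericyte markers, 4 fell and none rose in Winnie against C57BL/6, and 2 fell and 2 rose in Winnie-Prolapse against C57BL/6, at an adjusted p under 0.05 and 1.5-fold. Both counts include C57BL/6 replicate 7, the highest of the 22 libraries for 4 of the 6 markers. Without that library, 1 fell and 2 rose in Winnie-Prolapse against C57BL/6, and the count for Winnie without it is not given here. Their summed level ran from 144 to 1107 CPM in C57BL/6, the upper value being replicate 7, from 84.6 to 195 CPM in Winnie and from 101 to 252 CPM in Winnie-Prolapse. The part of pericytes in the level of Enpep was not tested.

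Anpep codes for aminopeptidase N, which trims neutral residues from the ends of peptides, and lies at chr7:79821803-79861059 on the minus strand. It held 4.06 to 17.3 CPM in C57BL/6 with a median of 12.0. The Winnie libraries held 17.4, 24.2, 23.9, 10.9, 11.1, 9.32 and 9.78 CPM, the first 3 of these being the males. The Winnie-Prolapse libraries held 15.5, 15.0, 9.74, 33.8, 22.8, 39.8 and 22.04 CPM. Of the 7 Winnie-Prolapse libraries, 4 lay above every C57BL/6 library and 3 within their range. Anpep rose in Winnie-Prolapse against C57BL/6 with a fitted log2 change of 1.02 ± 0.32 (SE; adjusted p = 0.0146), short of an adjusted p under 0.001, and of 0.62 ± 0.23 (SE; adjusted p = 0.0353) without the 2 libraries that stood apart. The log2 fold change was 0.63 ± 0.32 (SE; adjusted p = 0.218) in Winnie-Prolapse against Winnie, and 0.35 ± 0.28 (SE; adjusted p = 0.479) without Winnie-Prolapse replicate 6. In Winnie against C57BL/6 it was 0.39 ± 0.27 (SE), and 0.26 ± 0.22 (SE) without C57BL/6 replicate 7. Relative to the summed epithelial markers, the mean of Anpep in Winnie-Prolapse was 1.78 times that in C57BL/6, or 1.26 times without the 2 libraries that stood apart. All 6 macrophage and monocyte markers rose in Winnie-Prolapse against C57BL/6, with summed levels of 153 to 322 CPM against 46.8 to 92.1 CPM, and 3 of 6 rose in Winnie, where the sum ran from 72.4 to 215 CPM. The part of these cells in the level of Anpep was not tested.

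Dpp4 codes for dipeptidyl peptidase 4, which removes dipeptides that end in proline and inactivates incretin hormones, and lies at chr2:62330073-62412231 on the minus strand. It held 27.0 to 41.5 CPM in C57BL/6 with a median of 37.7. The Winnie libraries held 34.9 to 51.0 CPM with a median of 43.2. The Winnie-Prolapse libraries held 40.4, 20.7, 28.4, 24.8, 31.4, 30.1 and 32.1 CPM. Of the Winnie libraries, 5 of 7 stood above every C57BL/6 library, and 6 of the 7 Winnie-Prolapse libraries stood below every Winnie library. Relative to the summed epithelial markers this pattern was weaker: 1 of the 7 Winnie libraries stood above every C57BL/6 library, 3 of the 7 Winnie-Prolapse libraries stood below every Winnie library, and the mean in Winnie was 0.976 times that in C57BL/6. The mean in Winnie-Prolapse on that scale was 0.725 times that in C57BL/6, with 2 of 7 libraries below every C57BL/6 library. Without the 2 libraries that stood apart it was 0.639 times, with 5 of 6 libraries below. The log2 fold change was -0.20 ± 0.15 (SE; adjusted p = 0.269) in Winnie-Prolapse against C57BL/6, -0.31 without Winnie-Prolapse replicate 1, -0.093 without replicate 2 and -0.13 without replicate 4, with no call in any of these. Against Winnie it was -0.54 ± 0.15 (SE; adjusted p = 0.0428), under the 1.5-fold limit. For Winnie against C57BL/6 it was 0.34 ± 0.10 (SE). All 8 T cell markers rose in Winnie and in Winnie-Prolapse, each against C57BL/6, at an adjusted p under 0.05 and 1.5-fold, with summed levels of 4.76 to 21.0 CPM in C57BL/6, 15.4 to 43.3 CPM in Winnie and 21.4 to 54.3 CPM in Winnie-Prolapse. Their part in the level of Dpp4 was not tested.

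Ace codes for angiotensin-converting enzyme, a peptidase that makes angiotensin II by taking a dipeptide off the C-terminal end of angiotensin I, and lies at chr11:105967945-105989964 on the plus strand. It held 60.7 to 74.6 CPM in 7 of the C57BL/6 libraries and 9.16 CPM in C57BL/6 replicate 7. The Winnie libraries held 36.1 to 65.9 CPM with a median of 49.9. In Winnie-Prolapse, 6 libraries held 28.5 to 67.4 CPM and replicate 6 held 230 CPM. The 2 libraries that stood apart were thus also the lowest and the highest of all 22 for Ace. The log2 fold change in Winnie-Prolapse against C57BL/6 was 0.48 ± 0.49 (SE; adjusted p = 0.428) with them and -0.45 ± 0.20 (SE; adjusted p = 0.0759) without them. Against Winnie it was 0.74 ± 0.45 (SE; adjusted p = 0.303), and -0.05 ± 0.22 (SE; adjusted p = 0.926) without Winnie-Prolapse replicate 6. For Winnie against C57BL/6 it was -0.26 ± 0.29 (SE), and -0.43 ± 0.10 (SE) without C57BL/6 replicate 7. Of 8 endothelial markers, 5 rose in Winnie-Prolapse against C57BL/6 and none did in Winnie, with summed levels of 56.4 to 84.4 CPM in C57BL/6, 38.1 to 151 CPM in Winnie and 83.0 to 226 CPM in Winnie-Prolapse. The part of endothelium in the level of Ace was not tested.

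**Figure D3:**
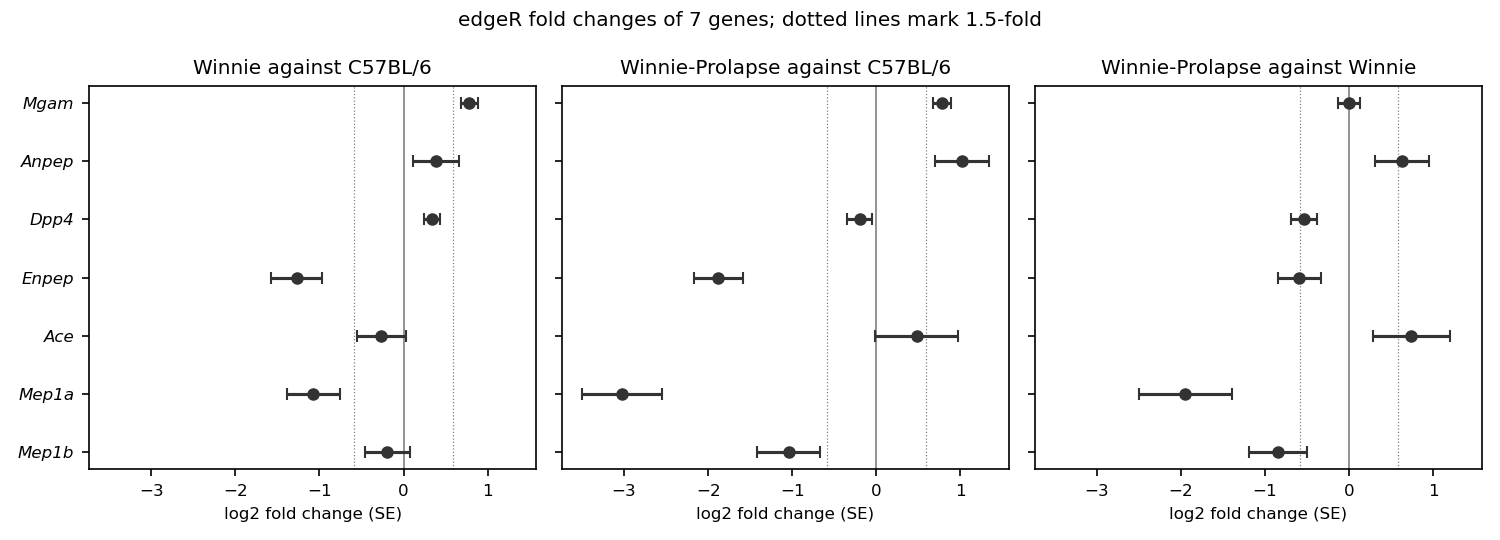
Log2 fold changes (horizontal axes, points) with their SE (bars) of 7 of the genes in the 3 comparisons of the groups, from edgeR, with dotted lines at 1.5-fold; Sis is left out because it did not pass the filter on low counts. Mep1a and Enpep lie farthest to the left in Winnie-Prolapse against C57BL/6, and Mgam lies at 0.78 in both comparisons with C57BL/6.

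In counts, 2 of the 6 tested genes other than Mgam were called in Winnie-Prolapse against C57BL/6 at the study's threshold of an adjusted p under 0.001 and 1.5-fold (Enpep and Mep1a, both lower), where 18.3% of all 17397 genes tested were called and 8.47% were called lower. At an adjusted p under 0.05 and 1.5-fold the count was 4 of 6 (Mep1b lower and Anpep higher in addition), against 34.4% of all genes. In Winnie-Prolapse against Winnie, none of the 6 was called at the stricter threshold by edgeR or DESeq2, where edgeR called 0% of all 17041 genes. At the wider threshold 1 of the 6 was called, Mep1a, against 6.99% of all genes and 2.72% called lower. At an unadjusted p under 0.05 edgeR had 4 of the 6, against 27.8% of all genes. These shares are for 6 genes chosen with earlier results known and show nothing particular to them.

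Levels between genes were compared per kilobase of the union of annotated exons, in CPM per kilobase. In C57BL/6 the order was Mep1a (128 ± 36.7), Mep1b (41.4 ± 23.2), Mgam (24.7 ± 1.85), Ace (11.3 ± 3.94), Dpp4 (5.79 ± 0.842), Anpep (2.93 ± 1.05), Enpep (2.17 ± 1.26) and Sis (0.0377 ± 0.0270), each as mean ± SD with n = 8. The first 3 held the same place in all 8 libraries, and Anpep and Enpep were 6th and 7th in 7 of them. Without C57BL/6 replicate 7, Mep1a had 116 ± 13.4, Mep1b 33.3 ± 4.16 and Ace 12.6 ± 0.917 (SD, n = 7). In C57BL/6 replicate 7 Enpep was above Anpep, and without it Anpep had 3.20 ± 0.748 and Enpep 1.73 ± 0.212 (SD, n = 7), with ranges that narrowly overlapped. In Winnie the leading genes were Mep1a (57.6 ± 31.5), Mgam (40.3 ± 6.79) and Mep1b (33.9 ± 8.82), each with n = 7, whose ranges overlapped. In Winnie-Prolapse Mgam led with 39.8 ± 5.10 (SD, n = 7), being first in 5 of 7 libraries and second in the other 2. It was followed there by Mep1b (18.6 ± 11.0), Mep1a (14.7 ± 11.3) and Ace (13.6 ± 13.4), whose ranges overlapped. Without Winnie-Prolapse replicate 6, in which Ace led with 43.6, Ace had 8.65 ± 2.77 (SD, n = 6). Sis was last in all 22 libraries. The ratio of Mgam to Mep1a on this scale ran from 0.125 to 0.279 in C57BL/6, from 0.266 to 3.38 in Winnie and from 1.12 to 9.87 in Winnie-Prolapse.

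**Figure D4:**
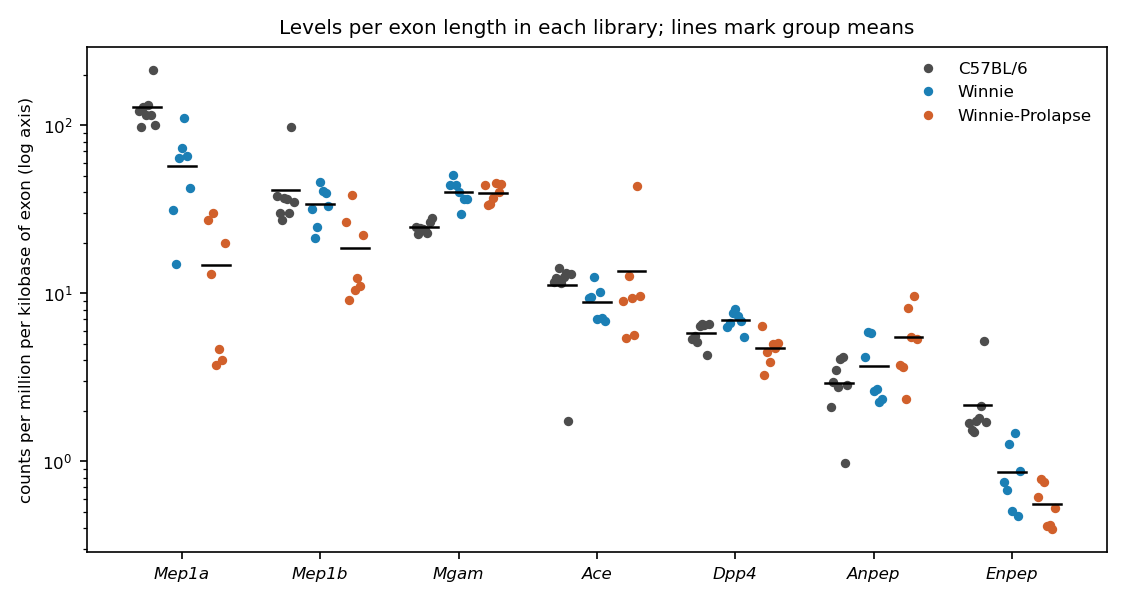
CPM per kilobase of exon (vertical axis, log scale) of 7 of the genes in each library, by group, ordered by their mean in C57BL/6, with lines at the group means; Sis is left out because some of its values are 0. Mep1a leads in C57BL/6 with a mean of 128, and Mgam leads in Winnie-Prolapse with a mean of 39.8.

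Sex was fitted across all 22 libraries. None of the 7 members tested differed between males and females at an adjusted p under 0.05 by edgeR's quasi-likelihood test, where 0.0768% of all genes did, and the adjusted p of the 7 ran from 0.964 to 0.999. The interaction of sex and group is given for Winnie-Prolapse against C57BL/6 in the members other than Mgam. None of these 7 had one at that threshold, where 0% of all genes had one, and the smallest unadjusted p was 0.046, for Enpep. At an unadjusted p under 0.05, edgeR had 818 of 18236 genes tested for sex and 945 of 18911 tested for this interaction. About 1 in 20 genes reach such a p by chance, so these counts are not read as differences.

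The other genes of the brush border were taken from lists. Of 16 other brush border enzymes, 11 passed the filter and 2 of these fell while 1 rose in Winnie-Prolapse against C57BL/6 at an adjusted p under 0.05 and 1.5-fold. Naaladl1, an aminopeptidase of the apical membrane, held 31.6 to 83.2 CPM in C57BL/6, 8.27 to 48.9 CPM in Winnie and 1.45 to 11.8 CPM in Winnie-Prolapse, with a fitted log2 change of -3.33 ± 0.34 (SE; adjusted p = 2.62e-06). Dpep1, a dipeptidase, held 17.1 to 495 CPM in C57BL/6 with a median of 48.3, 9.68 to 267 CPM in Winnie and 6.98 to 45.4 CPM in Winnie-Prolapse. Its log2 change of -2.48 ± 0.78 (SE; adjusted p = 0.0146) in Winnie-Prolapse against C57BL/6 rested in large part on C57BL/6 replicate 7, being -1.36 ± 0.55 (SE; adjusted p = 0.0488) without that library and -1.24 ± 0.58 (SE; adjusted p = 0.0896) without both libraries that stood apart. Treh, which codes for trehalase, had one of 1.84 ± 0.30 (SE; adjusted p = 0.000145) at low levels of 0.133 to 0.650 CPM in C57BL/6 and 0.503 to 1.58 CPM in Winnie-Prolapse. Mme, or neprilysin, had -0.64 ± 0.54 (SE; adjusted p = 0.333), and -1.32 ± 0.44 (SE; adjusted p = 0.0218) without both libraries. Without C57BL/6 replicate 7, and also without both libraries, 2 of the 11 rose and 2 fell. The median log2 fold change of the 11 was -0.10. Lct, Akp3, Folh1, Tmprss15 and Enpp7 were under 1 CPM in every library.

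Of 11 transporters and their partners, 9 passed the filter and 4 fell while none rose, with a median log2 fold change of -0.96. Slc15a1, the carrier that takes up the di- and tripeptides the peptidases release, held a median of 481 CPM in C57BL/6, 275 CPM in Winnie and 87.0 CPM in Winnie-Prolapse. Its log2 fold change was -2.06 ± 0.46 (SE; adjusted p = 0.00168) in Winnie-Prolapse against C57BL/6, or -2.04 ± 0.35 (SE; adjusted p = 0.000269) without both libraries that stood apart. Against Winnie it was -1.66 ± 0.45 (SE; adjusted p = 0.0363), a call lost without any one of Winnie replicates 3 to 7 or Winnie-Prolapse replicates 2, 4, 5 and 6 (adjusted p up to 0.0777). Slc36a1, a proton-coupled amino acid carrier, had -1.17 ± 0.43 (SE; adjusted p = 0.0306) and -0.91 ± 0.20 (SE; adjusted p = 0.0187) in the same comparisons, which share the Winnie-Prolapse libraries. Its call against C57BL/6 was lost without any one of C57BL/6 replicates 3, 5, 6 and 8 or Winnie-Prolapse replicates 2, 4, 5 and 6 (adjusted p up to 0.0627), while without C57BL/6 replicate 7 it was -1.34 ± 0.25 (SE; adjusted p = 0.000438). Slc6a19, a carrier of neutral amino acids, had 1.06 ± 0.46 (SE; adjusted p = 0.0658) against C57BL/6 and 1.30 ± 0.46 (SE; adjusted p = 0.0270) without C57BL/6 replicate 7, and was also called without Winnie-Prolapse replicate 1, 3 or 7, and Cltrn, a partner of that carrier, was at 0.0684 CPM or less in every library. Without C57BL/6 replicate 7, 1 of the 9 rose and 5 fell.

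Of 15 structural genes of the microvillus, 14 passed the filter, 1 rose and 2 fell, with a median log2 fold change of -0.43. Eps8, which caps the actin bundle, had 0.93 ± 0.15 (SE; adjusted p = 0.000151), Cdhr2, a cadherin that links microvilli, -0.89 ± 0.23 (SE; adjusted p = 0.00439) and Espn, an actin bundler, -0.96 ± 0.37 (SE; adjusted p = 0.0392). The call of Espn held only when the library left out was C57BL/6 replicate 2 or Winnie-Prolapse replicate 1 or 3, with an adjusted p up to 0.0867 otherwise. Without C57BL/6 replicate 7, 2 structural genes rose and 1 fell. Villin itself, Vil1, had 0.25 ± 0.17 (SE; adjusted p = 0.238). Of 16 enterocyte transcription factors, 15 passed the filter and 2 rose while none fell at that threshold. Prdm1, which holds back the adult enterocyte programme in the immature gut and is also made by plasma cells, had 2.80 ± 0.24 (SE; adjusted p = 4.83e-07), and Creb3l3 had 1.41 ± 0.43 (SE; adjusted p = 0.0116). Isx, which holds down vitamin A uptake genes in enterocytes, became the third when C57BL/6 replicate 7 was left out. It held 0.190 to 1.23 CPM in the other 7 C57BL/6 libraries, 105 CPM in that one and 3.13 to 11.8 CPM in Winnie-Prolapse, and its log2 fold change without it was 3.59 ± 0.43 (SE; adjusted p = 1.04e-05). Hnf4a had -0.58 ± 0.15 (SE; adjusted p = 0.0040), just under 1.5-fold. Hnf4a fell in Winnie-Prolapse against Winnie, with -0.60 ± 0.15 (SE; adjusted p = 0.0295), a call lost without any one of Winnie replicates 4, 5 and 6 or Winnie-Prolapse replicates 2, 4, 5 and 6. Of 14 genes of the angiotensin peptides and receptors, 10 passed the filter, 2 rose (Thop1 and Lnpep) and 1 fell; 3 rose and 2 fell without C57BL/6 replicate 7, and 2 rose and 4 fell without both libraries. Thop1 was under 1.5-fold without C57BL/6 replicate 1 or 4 or Winnie-Prolapse replicate 3. The one that fell was Agtr1a, the receptor of angiotensin II, with -1.66 ± 0.17 (SE; adjusted p = 2.78e-06), and it fell against Winnie too, with -1.17 ± 0.18 (SE; adjusted p = 0.00787). Naaladl1 likewise fell against Winnie, with -2.11 ± 0.44 (SE; adjusted p = 0.0176).

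Relatives of the members and genes of gut position were counted in the same way. Of 16 relatives by gene family, 13 passed the filter, and 4 rose and 3 fell in Winnie-Prolapse against C57BL/6. The 4 include Mgam2-ps, which is no independent count beside Mgam and is not read as a test. Rnpep, aminopeptidase B, had 0.80 ± 0.10 (SE; adjusted p = 9.29e-06), Ganc, a glucosidase of the inner cell, -0.70 ± 0.12 (SE; adjusted p = 0.000143) and Fap, the fibroblast relative of Dpp4, -0.82 ± 0.16 (SE; adjusted p = 0.000594). Of 7 tested genes best known from the small intestine, 1 rose and 2 fell. Mttp had 0.78 ± 0.20 (SE; adjusted p = 0.00392) and Rbp2 -1.42 ± 0.39 (SE; adjusted p = 0.00655). Fabp2 had -3.95 ± 1.26 (SE; adjusted p = 0.0157), a call that was lost without C57BL/6 replicate 7 (adjusted p = 0.441). Against Winnie it had -1.72 ± 0.47 (SE; adjusted p = 0.0365), a call lost without any one of Winnie replicates 4 to 7 or Winnie-Prolapse replicates 2, 4, 5, 6 and 7. Of 8 genes of distal colon identity none rose and 3 fell, and all 3 are also among the mature colonocyte markers above, so they are no separate result. They include Slc26a3, a chloride exchanger, with -2.55 ± 0.51 (SE; adjusted p = 0.000714) and Car4, a carbonic anhydrase, with -2.04 ± 0.72 (SE; adjusted p = 0.0255). The other 5 genes of that list gave no call, except that Hoxb13, with -0.49 (adjusted p = 0.355), had -0.67 ± 0.18 (SE; adjusted p = 0.00555) without C57BL/6 replicate 7, in which it was low.

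In Winnie against C57BL/6, the same lists gave 1 enzyme higher and 1 lower, no transporter in either direction, 1 structural gene higher, 2 transcription factors higher and 1 angiotensin gene higher, where 7.42% of all genes were higher and 8.53% lower at an adjusted p under 0.05 and 1.5-fold. Naaladl1 had -1.22 ± 0.30 (SE; adjusted p = 0.011) and Treh 1.69 ± 0.36 (SE; adjusted p = 0.00566). Eps8 had 0.70 ± 0.17 (SE; adjusted p = 0.00965), Prdm1 2.04 ± 0.26 (SE; adjusted p = 0.000937) and Creb3l3 1.07 ± 0.34 (SE; adjusted p = 0.0307). Cma1, the mast cell chymase that also makes angiotensin II, had 1.03 ± 0.36 (SE; adjusted p = 0.0457). The call of Creb3l3 was lost without C57BL/6 replicate 1 or 3 or Winnie replicate 1, 2 or 6, and that of Cma1 held only without C57BL/6 replicate 7 or Winnie replicate 4, 5 or 6. Without C57BL/6 replicate 7 the enzymes gave 2 higher and 1 lower and the transporters 1 higher and 2 lower. Among the relatives 2 were higher and 1 lower. The higher ones were Mgam2-ps, which is no independent count beside Mgam and is not read as a test, and Erap1, which trims peptides for antigen presentation, with 0.72 ± 0.17 (SE; adjusted p = 0.00869). The lower one was Dpp10, with -1.32 ± 0.39 (SE; adjusted p = 0.0237). Among the small intestine genes 2 were higher, Apob with 0.61 ± 0.19 (SE; adjusted p = 0.0282) and Fabp6 with 1.57 ± 0.46 (SE; adjusted p = 0.0221), and 2 lower, Rbp2 with -0.88 ± 0.23 (SE; adjusted p = 0.0152) and Slc10a2 with -1.47 ± 0.43 (SE; adjusted p = 0.0215). The call of Dpp10 was lost without Winnie replicate 1 or 2, that of Fabp6 without Winnie replicate 1 or 7, and that of Apob without C57BL/6 replicate 2, 3, 5 or 8 or Winnie replicate 1 or 6. Of the 8 genes of distal colon identity edgeR called 0 at that threshold.

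The genes most like each member were found from the correlation across all 22 libraries of deviations of log2 CPM from the group means, over 13596 genes, as a description. These libraries share depth and cell makeup. Mgam was most like Tnfrsf1b (Pearson r = 0.835), Scfd1 (0.832), Lrba (0.827), Ero1l (0.824) and Parp14 (0.815), and each stayed at 0.819 or higher over the 20 libraries without the 2 that stood apart. Mep1a was most like Pm20d1 (0.937), Tst (0.927) and Prkce (0.919), and Mep1b most like Cyp4f14 (0.943), Rfk (0.922) and Slc22a18 (0.908). Enpep was most like Scube2 (0.918), Ppm1e (0.909) and Hmcn2 (0.903), Dpp4 most like Hepacam2 (0.809), Hexa (0.782) and Tbc1d32 (0.779), and Anpep most like Tgfbr2 (0.848), Csf2rb2 (0.842) and Vps13a (0.837). For Ace the leading genes Slc28a3 (0.895), Hpn (0.842) and Aldoc (0.839) fell to 0.152, 0.377 and 0.589 without the 2 libraries. Sis was too near its floor for a likeness to be read. Among the members, Mep1a and Mep1b were alike (0.737, and 0.743 over 20 libraries), Anpep and Mep1b went in opposite directions (-0.776, and -0.652), and Mgam and Mep1a were weakly opposed (-0.363, and -0.431).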

How the data were processed

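The deposited table holds raw read counts per gene, which the authors made from the distal colon libraries with the RNAsik pipeline on mouse genome GRCm38; the submitters' processing notes name STAR, featureCounts and limma. The annotation release, the strand setting and the treatment of reads shared between genes are not given in the sources used here, so reads of Anpep, Dpp4, Enpep, Ace and Mep1b cannot be told apart from genes that overlap them. All 22 columns matched a labelled sample, and each sample is a separate mouse.

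From these counts, CPM was computed with the library totals, and CPM per kilobase with the union of exons of GENCODE M21. Groups were compared with edgeR 4.0.16 (quasi-likelihood test, TMM factors, filterByExpr, Benjamini-Hochberg adjustment over all genes tested) in R 4.3.3, each comparison on its own 2 groups. A gene was called at an adjusted p under 0.001 and 1.5-fold, as in the study, and counted again at an adjusted p under 0.05 and 1.5-fold. Sex was tested across all 22 libraries with group in the model, and the interaction of sex and group in the same way. The script was tested on simulated data with 200 changed genes of known fold, of which 38% at 2-fold and 89% at 4-fold were recovered for Winnie-Prolapse against C57BL/6 at the stricter threshold. Other settings tried were DESeq2 1.42.0, limma-voom (limma 3.58.1), scaling to library size alone, no low-count filter, a minimum of 10 counts throughout, a sex term, a fit of all 3 groups and leaving out each library. The fit without both libraries that stood apart, the list genes with libraries left out, and the levels per kilobase and per epithelial sum without those libraries were chosen after seeing the data. A floor of 3 counts covers counting error only.

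The members, the gene lists and the motifs were chosen with earlier results of these data known. The text names all 8 members and, per brush border or gut list, the 2 called genes with the highest mean CPM in each direction and the partners Slc6a19, Cltrn and Mme; Vil1, Isx, Hoxb13, and Hnf4a against C57BL/6, were added after their values had been seen. Some genes of the lists are not reported here by name. For likeness, genes whose mean log2 CPM reached 1 were ranked, 5 being named for Mgam and 3 for each other member. Promoter windows came from RefSeq (GRCm38.p6), and none is printed for Anpep and Ace, whose annotated starts differ between sources or number 2.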

Additional observations from a re-analysis of the deposited data

Results flagged for a closer look

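A single library lay far from the others of its group for 5 of the genes, by Dixon's criterion at the 95% level, which marks about 1 in 20 groups by chance; 7 of the 27 combinations of gene and group examined were marked. C57BL/6 replicate 7 accounted for 4 of them. It held 24.7 CPM of Enpep with the next highest at 10.1, 738 CPM of Mep1a with the next at 457, 257 CPM of Mep1b with the next at 99.8, and 9.16 CPM of Ace with the next lowest at 60.7. Winnie-Prolapse replicate 6 held 230 CPM of Ace with the next at 67.4. For Sis, C57BL/6 replicate 8 held 0.729 CPM with the next at 0.398, and Winnie-Prolapse replicate 1 held 0.651 CPM with the next at 0.129, each from 22 counts. Mgam, Anpep and Dpp4 had no such library in any group. The position genes of C57BL/6 replicate 7 and the milk genes of Winnie-Prolapse replicate 6 are given in the report; their part in these values was not tested.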

How the results depend on the processing

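No paired analysis was possible because the labels number no replicates; the numbers used here only name the libraries of a group and tie no mice together. In Winnie-Prolapse against C57BL/6, Enpep and Mep1a were called at the stricter threshold in all 23 alternatives, and the count at the wider threshold was 3 or 4. The log2 change of Ace ran from -0.29 to 0.64 with a library left out, the negative value being without Winnie-Prolapse replicate 6, and was -0.45 without both libraries that stood apart. Against Winnie it ran from -0.046 to 0.89, the negative value again being without Winnie-Prolapse replicate 6. In Winnie-Prolapse against Winnie the wider threshold called 1 member, Mep1a, which became 0 with sex as a covariate and 0 to 2 when a library was left out; it was 2 without Winnie-Prolapse replicate 1 (Dpp4 in addition) or replicate 3 (Mep1b in addition). Without the TMM factors the median of all genes moved by -0.07, 0.01 and -0.08, and every member kept its direction except Mgam in Winnie-Prolapse against Winnie, whose value went from 0.00 to -0.01. The cause of these changes was not tested.

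For the other brush border genes (enzymes, transporters and structural genes together), Winnie-Prolapse against C57BL/6 gave 4 calls at the stricter threshold, 8 with DESeq2, 7 without both libraries that stood apart and 4 to 8 with a library left out, 8 being without C57BL/6 replicate 7. At the wider threshold it gave 10, or 8 to 16, with 16 without Winnie-Prolapse replicate 3. Winnie-Prolapse against Winnie gave 0 at the stricter threshold and 3 with DESeq2, and at the wider one 4, or 2 to 11 (8 without Winnie replicate 2, 2 without Winnie replicate 4, 11 without Winnie-Prolapse replicate 3). Winnie against C57BL/6 gave 0 at the stricter threshold, 3 with DESeq2 and 0 to 2 with a library left out (2 without Winnie replicate 5), and at the wider one 3, 5 with DESeq2 and 3 to 7 (7 without C57BL/6 replicate 7, 5 without Winnie replicate 3). At 24817527 counts or more per library, depth limited Sis alone among the 8 genes.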
